A study of Homo sapiens with 9 samples.

Results

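The interferon-induced transmembrane genes IFITM1, IFITM2 and IFITM3 were examined in all 9 RNA libraries of U-87 cells, an established human glioblastoma line that the study describes as resistant to temozolomide (TMZ). The 3 genes were chosen by name among 35002 genes with a symbol in the count table, and the transcripts listed for each gene were summed. They were picked with earlier results of these libraries in view, so their levels and fold changes are given as a description, without p-values. Cells were cultured for 24 h without treatment (Control, 3 libraries) or with evernic acid (EA), a metabolite of lichens, with TMZ, an alkylating drug used against glioblastoma, or with both. EA30 and EA45 received EA at 30 and 45 µM, TMZ600 received TMZ at 600 µM, and EA35TMZ320, EA20TMZ380 and EA20TMZ580 received 35, 20 and 20 µM EA together with 320, 380 and 580 µM TMZ. Each treatment has 1 library, so no treatment has a replicate. The labels do not say that the 3 controls came from separate cultures, so the spread between them may be technical.

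IFITM proteins are small membrane proteins that hinder the entry of enveloped viruses by acting where the viral and the cellular membrane fuse. IFITM1 resides mainly at the cell surface, whereas IFITM2 and IFITM3 carry a longer N-terminal part with a sorting signal and reside mainly in endosomes and lysosomes. The genes are known for their induction by interferons: receptors signal through JAK kinases to transcription factors that bind the interferon-stimulated response element (ISRE) in promoters. IFITM genes also have a basal expression in many cells, and IFITM1 and IFITM3 have been studied in gliomas.

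The 3 genes are neighbours in band 11p15.5. In the RefSeq annotation of GRCh38.p14, the same assembly as the hg38 build named in the submitters' processing notes, IFITM2 lies at chr11:307816-309395 on the plus strand, IFITM1 at chr11:314040-315272 on the plus strand and IFITM3 at chr11:319676-320860 on the minus strand. The gap between IFITM2 and IFITM1 is 4644 bp and that between IFITM1 and IFITM3 4403 bp, and each gene has 2 exons. The coding sequences of IFITM2 and IFITM3 are 93.2% identical, those of IFITM1 and IFITM2 66.7% and those of IFITM1 and IFITM3 68%. The untranslated regions at the 3′ end are less alike: 65% identical for IFITM2 and IFITM3, 49.1% for IFITM1 and IFITM2 and 56.1% for IFITM1 and IFITM3.

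The promoters of IFITM1, which was lower in every treated library, and of IFITM3, which had no counts, are shown with that of BST2. BST2 was the interferon-stimulated effector gene outside the family that had enough counts to be tested. The set of promoters used here held no entry for IFITM2, so its promoter was not searched. Each window is the RefSeq sequence of GRCh38.p14 from 250 bases before to 50 bases after the gene's start, read along the gene's strand: chr11:313790-314089 on the plus strand for IFITM1, chr11:320811-321110 on the minus strand for IFITM3 and chr19:17405581-17405880 on the minus strand for BST2. Capitals mark matches to the ISRE core, here the letters GAAA, any 2 bases and GAAA again, searched on both strands.
IFITM1: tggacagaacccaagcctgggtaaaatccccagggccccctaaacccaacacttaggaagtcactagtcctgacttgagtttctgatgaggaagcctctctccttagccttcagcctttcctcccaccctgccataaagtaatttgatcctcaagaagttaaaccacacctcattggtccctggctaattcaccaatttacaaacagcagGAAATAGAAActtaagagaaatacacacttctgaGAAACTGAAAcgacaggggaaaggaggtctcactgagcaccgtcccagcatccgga
IFITM3: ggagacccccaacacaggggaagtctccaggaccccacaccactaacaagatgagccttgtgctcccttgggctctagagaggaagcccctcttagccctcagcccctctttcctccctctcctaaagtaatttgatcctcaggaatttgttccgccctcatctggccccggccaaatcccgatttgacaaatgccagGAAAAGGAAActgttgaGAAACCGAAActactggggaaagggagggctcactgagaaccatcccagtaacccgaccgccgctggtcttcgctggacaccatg
BST2: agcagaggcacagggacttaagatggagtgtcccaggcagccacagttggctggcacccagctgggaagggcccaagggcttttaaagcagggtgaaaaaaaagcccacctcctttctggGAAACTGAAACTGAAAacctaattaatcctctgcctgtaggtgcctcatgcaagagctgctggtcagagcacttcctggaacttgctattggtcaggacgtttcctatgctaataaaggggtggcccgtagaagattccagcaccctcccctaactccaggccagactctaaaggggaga
Counted from the gene's start, the matches begin at positions -40 and -6 in IFITM1, at -52 and -35 in IFITM3 and at -130 and -124 in BST2, where they overlap each other. Of 35116 promoters of the same length, 1255 (3.57%) hold at least 1 match. The promoters of RIGI and TICAM1, described below, hold none. A match is a run of letters and no measurement of binding.

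The libraries came from the 3′ ends of transcripts, and the values are counts of reads per RefSeq transcript. The controls held 259753 to 285248 counts and the treated libraries 213566 (EA35TMZ320) to 490235 (EA30). Transcripts of the mitochondrial genome took 48.4 to 49.1% of the counts of the controls and 51.7 to 58.7% of those of the treated libraries. Of 159067 transcripts, 5850 had a count in any library and 618 features had the mean of at least 10 counts required for the test. Genes that glioma cells are known to express strongly, such as VIM and CD44, are listed at 0 in all libraries, so that no 0 was taken to mean a missing transcript. In bulk samples, fewer cells of a type and less RNA per cell cannot be told apart.

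IFITM1 and IFITM2 had enough counts and IFITM3 had none. IFITM2, listed as NM_006435.2, had 7095 counts over the 9 libraries and ranked 27 by mean counts among the 605 tested features outside the mitochondrial genome. IFITM1, listed as NM_003641.4, had 1651 counts and ranked 127. Both transcripts of IFITM3, NM_021034.3 and NR_049759.2, were listed at 0 in every library. By counting error alone a 0 allows up to 3 counts, which is 6.12 CPM (the usual unit of counts scaled to libraries of equal size) in EA30 and 14.0 CPM in EA35TMZ320.

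The 0 of IFITM3 is accompanied by features of its sequence and of the table. Of the 251 stretches of 50 bases in the last 300 bases of its transcript, 38 (15.1%) also occur in a transcript of another gene, among them IFITM1, IFITM2 and IFITM9P. The share was 3.19% (8 stretches) for IFITM1 and 0.398% (1 stretch) for IFITM2. Genes with 2 transcripts in the table, such as IFITM3, had a count in 8.9% of cases, against 14.3% of genes with 1 transcript, such as IFITM1 and IFITM2, and 10.7% of genes with 3 or more. RefSeq also places IFITM3-AS1, not analysed here, on the opposite strand over IFITM3. On the same strand, GENCODE has 1 transcript of another gene over IFITM1, which did have counts, and 0 over IFITM2 and IFITM3. The part of these features in the 0 was not tested, and no direction is given for IFITM3. Whether reads of IFITM1 or IFITM2 that map equally well to a family member are missing from their counts was not tested.

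IFITM1 was lower in all 6 treated libraries than in any control. The controls held 299, 264 and 283 counts, or 1037, 958 and 924 CPM after scaling by the TMM method, with a mean of 973 ± 58.2 CPM (SD, n = 3). EA30 held 250 counts (572 CPM), EA20TMZ380 171 (528 CPM), TMZ600 159 (469 CPM), EA20TMZ580 110 (355 CPM), EA45 78 (263 CPM) and EA35TMZ320 37 (182 CPM). The treated libraries thus ranged from 58.8% of the control mean in EA30 to 18.7% in EA35TMZ320, and none overlapped the controls.

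IFITM2 was also lower in all 6 treated libraries than in any control, but 2 of them lay close to the controls. The controls held 963, 909 and 1049 counts, or 3341, 3299 and 3425 CPM, with a mean of 3355 ± 64.2 CPM (SD, n = 3). EA30 held 1295 counts (2962 CPM), EA20TMZ380 951 (2935 CPM), TMZ600 772 (2276 CPM), EA20TMZ580 693 (2237 CPM), EA45 330 (1115 CPM) and EA35TMZ320 133 (655 CPM). EA30 and EA20TMZ380 reached 88.3 and 87.5% of the control mean, TMZ600 and EA20TMZ580 67.8 and 66.7%, EA45 33.2% and EA35TMZ320 19.5%. Among the 618 tested features, 68 (11% of them) had all 6 treated libraries below every control, and both genes were chosen with this pattern in view.

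**Figure D1:**
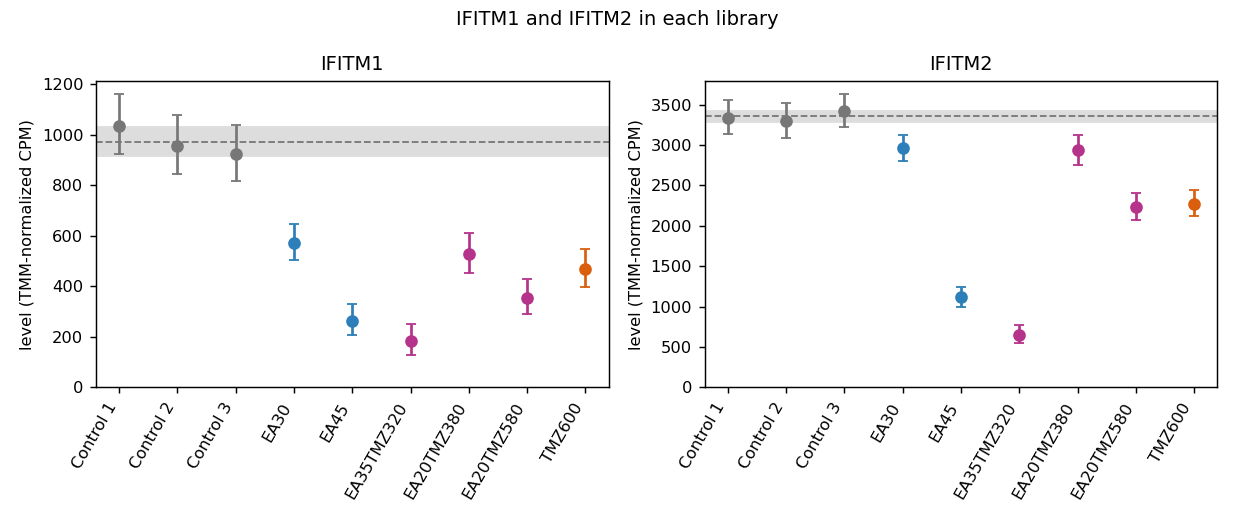
Levels of IFITM1 (left) and IFITM2 (right) in TMM-normalized CPM on linear axes from 0, 1 point per library with its exact 95% Poisson interval, the dashed line and grey band being the mean and SD of the 3 controls. Every treated point lies below every control, with EA35TMZ320 lowest at 182 CPM for IFITM1 and 655 CPM for IFITM2.

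With TMM scaling, both genes put the treated libraries in the same order, which was EA30, EA20TMZ380, TMZ600, EA20TMZ580, EA45 and EA35TMZ320 from high to low. IFITM1 kept this order under both other scalings, whereas IFITM2 did not: EA20TMZ380 lay above EA30 with DESeq2's size factors (91.2 against 88.6% of the control mean) and without mitochondrial transcripts (94.9 against 92.1%). In the latter, EA20TMZ580 also lay above TMZ600 (68.2 against 67.7%). EA45 and EA35TMZ320 stayed lowest for both genes under these scalings. Exact 95% Poisson intervals of the counts, which cover counting error only, separate few neighbours in this order. For IFITM1, only the step from the lowest control to EA30 had intervals that did not overlap, a ratio of 1.62. For IFITM2 the intervals of EA30 and Control 2 overlapped, whereas those at the steps from EA20TMZ380 to TMZ600 (ratio 1.29), from EA20TMZ580 to EA45 (ratio 2.01) and from EA45 to EA35TMZ320 (ratio 1.70) did not. EA35TMZ320 was the lowest and EA45 the next lowest treated library in 63 of the 618 features (10.2%). Across the 9 libraries, Pearson's r between the log2 levels of IFITM1 and IFITM2 was 0.919. This r describes points that share libraries, depth and controls.

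The spread between the controls was about that of counting. The coefficient of variation was 5.98% for IFITM1, against 5.95% expected from counting, and 1.91% against 3.20% for IFITM2. The spread of a treated culture was not measured by any library.

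Each treated library was then set against the 3 controls in 1 edgeR quasi-likelihood fit, whose standard errors take the spread from the controls. This spread is mostly pooled over the 618 features (prior degrees of freedom 38.8), so a standard error is not the gene's own spread between controls. The log2 fold change of IFITM1 was -2.41 ± 0.26 (SE) in EA35TMZ320, -1.88 ± 0.23 in EA45 and -1.45 ± 0.22 in EA20TMZ580. It was -1.05 ± 0.21 in TMZ600, -0.88 ± 0.21 in EA20TMZ380 and -0.77 ± 0.20 in EA30. IFITM1 was therefore 5.33-fold lower in EA35TMZ320 and 1.70-fold lower in EA30. The log2 fold change of IFITM2 was -2.36 ± 0.19 in EA35TMZ320, -1.59 ± 0.17 in EA45, -0.58 ± 0.16 in EA20TMZ580 and -0.56 ± 0.16 in TMZ600. It was -0.19 ± 0.15 in EA20TMZ380 and -0.18 ± 0.15 in EA30, where the medians of all 618 features were -0.13 and -0.06. IFITM2 was 5.12-fold lower in EA35TMZ320 and 1.13-fold lower in EA30.

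At an adjusted p under 0.05 in edgeR, IFITM1 passed as lower in 6 of 6 comparisons and IFITM2 in 4, not in EA30 and EA20TMZ380. Among all features, EA30 had 8.58% called lower and 17.3% called in either direction. EA45 had 19.3% lower and 38.8% in either direction, and EA35TMZ320 had 23.6% and 43.9%. The corresponding shares of EA20TMZ380 were 13.4% and 24.8%, those of EA20TMZ580 11.8% and 23.1%, and those of TMZ600 5.5% and 9.87%. Calls of lower level in all 6 treatments, as for IFITM1, were made for 15 features (2.43%). Nothing is read from these counts, because the genes were chosen on these contrasts. With DESeq2's Wald test IFITM1 was called in 4 comparisons, not in EA30 and EA20TMZ380, and IFITM2 in 3, and without the filter on low counts in 5 and 3. Without Control 2, IFITM2 in TMZ600 was no longer called.

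**Figure D2:**
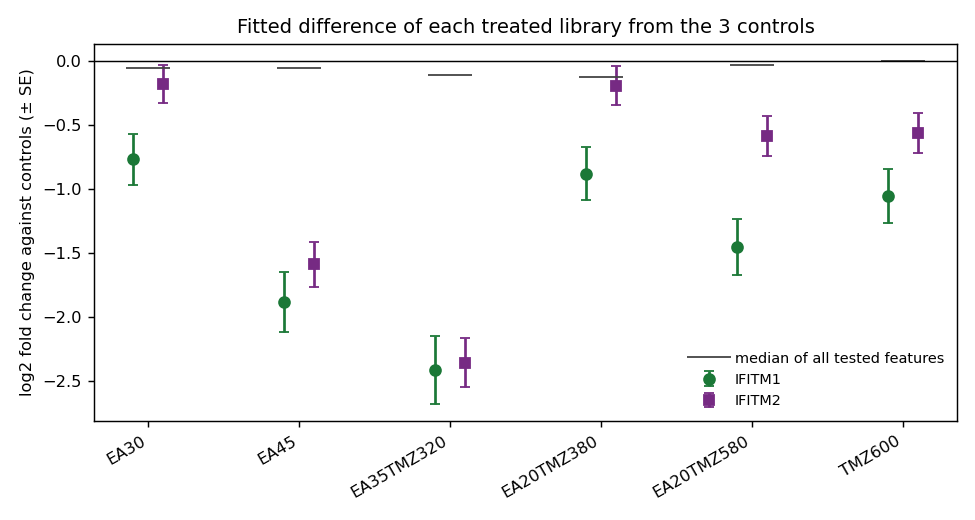
Fitted log2 fold change against the 3 controls (± SE, edgeR) of IFITM1 and IFITM2 in each treated library, with a short line at the median of all 618 tested features. Both genes are near -2.4 in EA35TMZ320, while IFITM2 lies near the median in EA30 and EA20TMZ380 and IFITM1 below it.

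Among the treated libraries, 2 pairs that received the same agents differed in only 1 concentration. Between EA30 and EA45, without TMZ, IFITM1 went from 572 to 263 CPM and IFITM2 from 2962 to 1115 CPM. The log2 difference was -1.12 ± 0.26 for IFITM1 and -1.41 ± 0.19 for IFITM2, and both were called lower in EA45, as were 5.5% of all features, with 9.71% called in either direction. With DESeq2's Wald test IFITM1 was not called here, while IFITM2 was. Between EA20TMZ380 and EA20TMZ580, at the same EA concentration, IFITM1 went from 528 to 355 CPM and IFITM2 from 2935 to 2237 CPM. The differences of -0.57 ± 0.26 for IFITM1 and -0.39 ± 0.19 for IFITM2 were not called, and 3.56% of all features were called lower and 8.25% in either direction. Fitted with these libraries and the controls alone, the differences were -0.73 ± 0.22 for IFITM1 and -0.55 ± 0.16 for IFITM2. Both genes were called lower in this fit, and no other alternative called either of them. These pairs are a description of 1 library each. Nothing is read from the calls in them, because no treatment has a replicate and the genes were chosen with earlier results in view. In the other treated libraries both agents or their concentrations differed, so their values stand side by side only: with TMZ at 600 µM alone IFITM1 was at 48.2% of the control mean, and with 580 µM TMZ and 20 µM EA at 36.5%.

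The share of IFITM1 within both genes was compared between libraries. IFITM1 took 23.7, 22.5 and 21.2% of the summed counts of both genes in the controls, a mean of 22.5 ± 1.22% (SD, n = 3). The share was 13.7% in EA20TMZ580 (exact 95% Clopper-Pearson interval 11.4 to 16.3%), 15.2% in EA20TMZ380 (13.2 to 17.5%) and 16.2% in EA30 (14.4 to 18.1%). It was 17.1% in TMZ600 (14.7 to 19.7%), 19.1% in EA45 (15.4 to 23.3%) and 21.8% in EA35TMZ320 (15.8 to 28.7%). Thus 5 treated libraries lay below every control, and EA35TMZ320 lay within the range of the controls. The intervals of EA20TMZ580, EA20TMZ380 and EA30 ended below the interval of every control, that of TMZ600 overlapped only with the interval of Control 3, and that of EA45 with the intervals of all 3 controls. This share does not depend on the scaling of the libraries. It is a share of counts and no ratio of transcript numbers, as the efficiency of counting may differ between both genes. In log2 fold changes IFITM1 lay 0.06 below IFITM2 in EA35TMZ320 and 0.87 below it in EA20TMZ580.

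**Figure D3:**
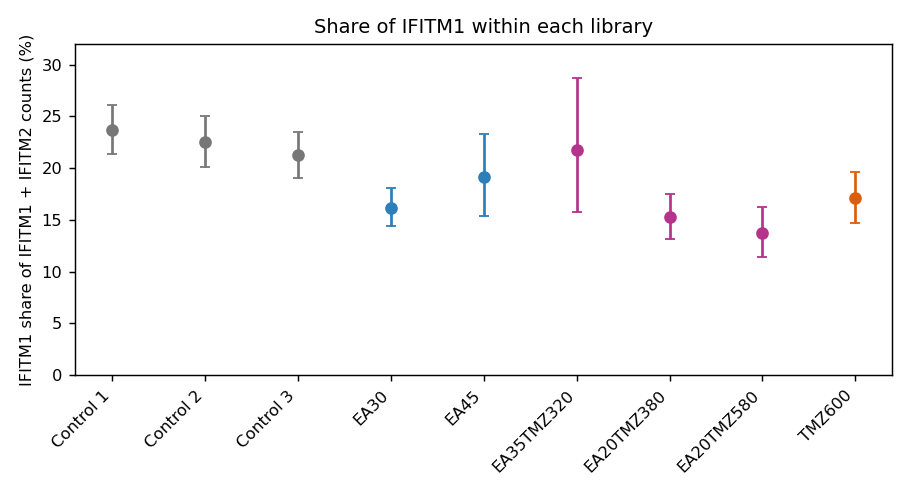
IFITM1 counts as percent of the summed IFITM1 and IFITM2 counts in each library, with exact 95% Clopper-Pearson intervals on an axis from 0. The controls lie at 21.2 to 23.7%, EA20TMZ580 is lowest at 13.7%, and EA35TMZ320 at 21.8% lies among the controls.

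The rest of the interferon system was measured thinly. Of 5 IFITM family genes, IFITM5, which acts in bone, and IFITM10 were listed at 0 like IFITM3. Of 10 interferons, 9 were listed at 0, and the remaining one, IFNL2, held 2, 1 and 18 counts in the controls and 0 to 2 in the treated libraries. Most of its 24 counts thus came from Control 3. Of 21 receptors and signal transducers, 20 were listed at 0, including IFNAR1, JAK1 and TYK2, while SOCS3, a feedback inhibitor of cytokine signalling, held 11 counts in all. None of the interferons, receptors and transducers could be tested. All 20 genes of antigen presentation were at 0. Of 52 other interferon-stimulated effector genes 46 were at 0, and IFIT5, which binds viral RNA, held 12 counts in all.

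3 genes of the system could be tested, and none of them was called lower in a treated library. BST2 (tetherin), which holds budding virus particles at the cell surface, held 309, 392 and 385 CPM in the controls and 324 to 581 CPM in the treated libraries. EA20TMZ580 at 581 CPM, EA20TMZ380 at 559 CPM, EA35TMZ320 at 458 CPM and EA30 at 398 CPM lay above every control, and of these the first 2 were called. TMZ600 at 389 CPM and EA45 at 324 CPM lay within the range of the controls. The log2 fold change of BST2 was 0.68 ± 0.22 in EA20TMZ580 (edgeR adjusted p = 0.0208) and 0.63 ± 0.22 in EA20TMZ380 (adjusted p = 0.0337). These calls were kept in 6 and 5 of 10 alternatives and reached adjusted p-values of 0.338 and 0.364. IFITM1 was below the controls in the same libraries, with 355 and 528 CPM.

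TICAM1 (TRIF), the adaptor of the RNA sensor TLR3, was at 319, 432 and 398 CPM in the controls and rose to 929 CPM in EA45. Its log2 fold change was 1.28 ± 0.20 in EA45 (edgeR adjusted p = 1.87e-06), which all 10 alternatives kept. In EA35TMZ320, at 621 CPM, it was 0.70 ± 0.22 (adjusted p = 0.0104), kept in 8 of 10 alternatives with adjusted p-values up to 0.259. EA45 and EA35TMZ320 were the libraries with the lowest levels of both IFITM genes. The other 4 treated libraries lay between 384 and 475 CPM and were not called.

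RIGI, the cytosolic sensor of viral RNA, was at 253, 279 and 349 CPM in the controls and at 473 CPM in EA35TMZ320. Its log2 fold change there was 0.68 ± 0.26 (edgeR adjusted p = 0.0321), kept in 4 of 10 alternatives with adjusted p-values up to 0.527. In EA45 it was 0.50 ± 0.26 (adjusted p = 0.124) and in EA20TMZ380 -0.51 ± 0.28 (adjusted p = 0.185). By list, sensing had 2 tested genes of 15, with 1 higher in EA45 and 2 higher in EA35TMZ320, and effectors had 1 tested gene of 52, higher in EA20TMZ380 and EA20TMZ580. Of all features, 19.6% were called higher in EA45 and 20.2% in EA35TMZ320, and 11.3% in each of EA20TMZ380 and EA20TMZ580. These few genes give no account of the interferon system as a whole.

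**Figure D4:**
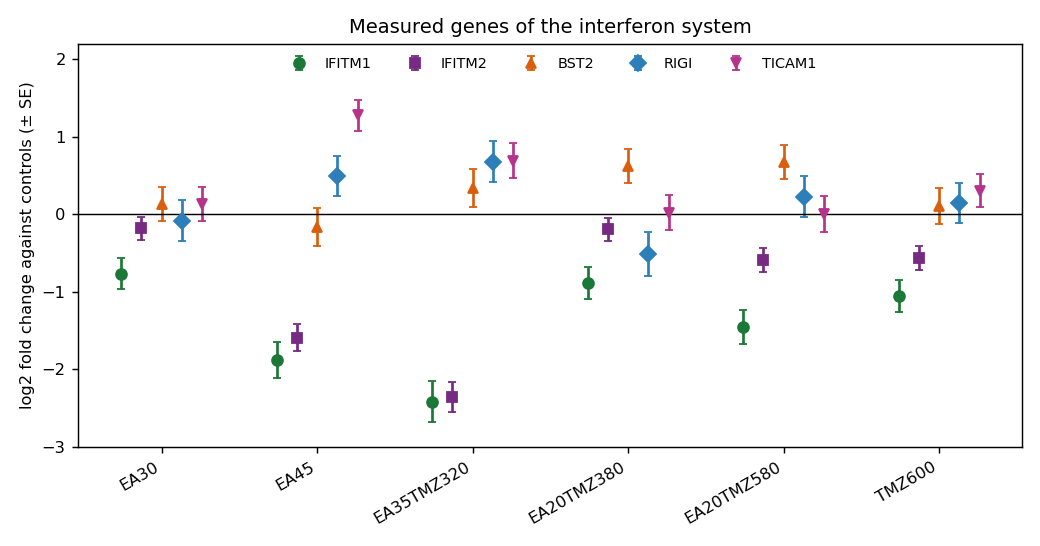
Log2 fold change against the 3 controls (± SE, edgeR) of the 5 tested genes of the interferon system in each treated library. IFITM1 and IFITM2 lie below 0 in all 6 libraries, TICAM1 lies at 1.28 in EA45, and BST2 lies above 0.6 in EA20TMZ380 and EA20TMZ580.

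The genes near IFITM1 on 11p15.5 did not share 1 direction. Of 42 neighbours listed, 41 were in the table, 32 at 0 in all libraries, and 4 were tested, at 432 to 524 kb from the end of IFITM1. CEND1, a protein of neurons linked to exit from the cell cycle, had 663, 515 and 568 CPM in the controls, 223 CPM in EA45 and 108 CPM in EA35TMZ320. Its log2 fold change was -2.42 ± 0.31 in EA35TMZ320 (edgeR adjusted p = 2.55e-08) and -1.38 ± 0.26 in EA45 (adjusted p = 2.30e-05). In EA20TMZ380 it was -0.66 ± 0.23 (adjusted p = 0.0327), kept in 4 of 10 alternatives with adjusted p-values up to 0.464. CEND1 was thus lowest in the same pair of libraries as the IFITM genes.

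POLR2L, a subunit shared by the RNA polymerases, fell by 1.63 on the log2 scale in EA45 (edgeR adjusted p = 2.94e-12) and by 1.23 in EA35TMZ320 (adjusted p = 1.52e-09), from a control mean of 9868 ± 440 CPM (SD, n = 3). In EA30 it fell by 0.51 (adjusted p = 0.00378) and in EA20TMZ580 by 0.39 (adjusted p = 0.0273), calls kept in 9 and 6 of 10 alternatives. TALDO1, the transaldolase of the pentose phosphate pathway, rose in 5 libraries, with log2 fold changes from 0.78 in EA20TMZ580 to 1.43 in EA45, and was at 0.03 ± 0.16 in TMZ600 (adjusted p = 0.927). RPLP2, a protein of the large ribosomal subunit, was called in none of the 6 comparisons, with log2 fold changes from -0.21 to 0.24. Without the mitochondrial transcripts it was called in 4, higher in EA45, EA35TMZ320 and EA20TMZ380 and lower in TMZ600, and 4 of 10 alternatives called it higher in EA20TMZ380. POLR2L in TMZ600, at -0.28 ± 0.13 (adjusted p = 0.185), was called lower in 2 of 10 alternatives.

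**Figure D5:**
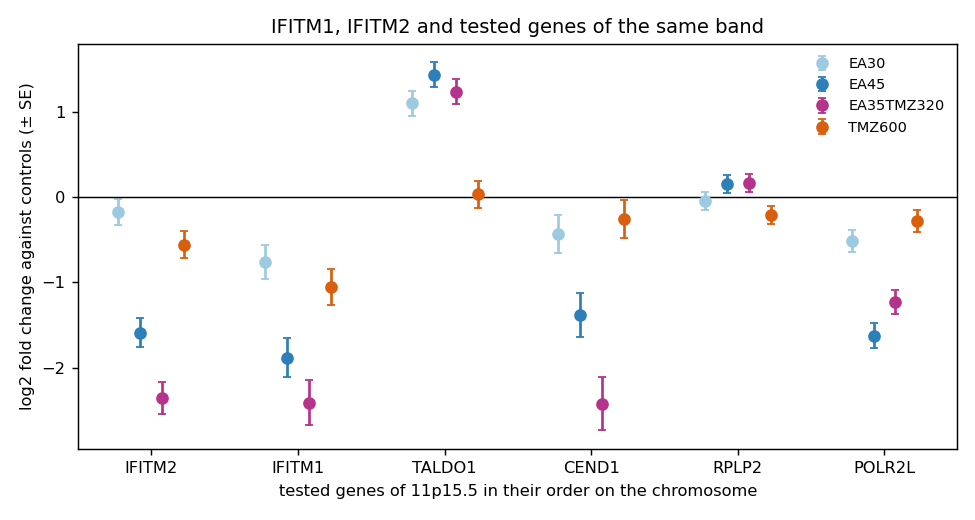
Log2 fold change against the 3 controls (± SE, edgeR) of IFITM2, IFITM1 and the 4 tested genes of the same band, in their order along the chromosome, for EA30, EA45, EA35TMZ320 and TMZ600. CEND1 and POLR2L lie below -1 in EA45 and EA35TMZ320 like the IFITM genes, TALDO1 lies above 1 in 3 of the 4 libraries, and RPLP2 lies near 0.

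The levels most like those of the IFITM genes across the 9 libraries belonged to genes elsewhere in the genome, except CEND1. By Pearson's r of log2 CPM, IFITM1 was most like SVOP (0.965), PAGR1 (0.962), ANKH (0.962), SOX4 (0.959) and ZC3H10 (0.951). IFITM2 was most like CMBL (0.971), SVOP (0.964), then PAGR1, ZSCAN5C and CEND1 (0.948). SVOP is a protein of synaptic vesicles, PAGR1 a partner of histone methyltransferases, ANKH a membrane transporter that controls extracellular pyrophosphate and SOX4 a transcription factor of progenitor cells. CMBL is a hydrolase of the cytosol, and ZC3H10 and ZSCAN5C are zinc finger genes. Each r rests on 9 libraries that share controls, depth and scaling, and it is a description of likeness. With DESeq2's size factors the same 5 genes were listed for both members, and without mitochondrial transcripts 4 of 5 for IFITM1 and 5 of 5 for IFITM2. SOX4 had log2 fold changes of -4.21 in EA35TMZ320, -3.13 in EA45 and -1.41 in TMZ600, larger than those of IFITM1. SVOP had -3.55 in EA35TMZ320, -2.10 in EA45 and -0.74 in EA30.

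The labelled cell line was checked against marker genes. Of 16 markers of U-87 and mesenchymal glioma cells 13 were listed at 0, including VIM, CD44, GFAP and SOX2, and NES (nestin), an intermediate filament of neural progenitors, was the one tested. The summed counts of the list were 565 to 651 CPM of the library total in the controls and 46.0 to 177 CPM in the treated libraries, and nearly all of these counts were NES. Of 14 markers of other cell types 12 were at 0, including PTPRC and PECAM1, and their sum was at most 1 count per library. NES was at 527, 613 and 568 CPM in the controls and at 50.7 to 159 CPM in the treated libraries. Its log2 fold change ranged from -3.48 ± 0.38 in EA45 (edgeR adjusted p = 6.64e-10) to -1.84 ± 0.31 in TMZ600 (adjusted p = 2.48e-05), and it was lower in all 6 comparisons under all 10 alternatives. NES, the mitochondrial share and the IFITM genes thus differed together between treated and control libraries, and the part of the first 2 in the levels of the IFITM genes was not tested.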

How the data were processed

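RNA of U-87 cells was sequenced from 3′ ends (QuantSeq) in 3 control and 6 treated libraries. The authors deposited 1 table of raw counts per RefSeq transcript, not normalized. The submitters' processing notes name HISAT2, HTSeq and hg38. Versions, read length and the counting settings are not given in the sources used here, so the treatment of reads with several matches is unknown. Libraries were mapped to treatments by their labels. Symbols came from RefSeq (GRCh38.p14), by accession with version for 57755 transcripts and without version for 56301, and 45011 transcripts with 4.63% of the counts had no match. IFITM1, IFITM2 and IFITM3 transcripts were summed per gene.

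Features with a mean of at least 10 counts entered edgeR 4.0.16 and its quasi-likelihood F-test (R 4.3.3; TMM; all 9 libraries, 1 coefficient per condition; Benjamini-Hochberg over 618 features; threshold 0.05). The biological coefficient of variation was 0.166. Log2 CPM for likeness used a prior count of 2. Named genes are the 3 members, every tested gene of the lists, and the 5 features most like each member. Examples of list genes at 0 or with few counts (such as IFNL2, SOCS3 and IFIT5) were chosen after their values were seen. The members and lists were chosen with earlier results of these data known. Alternatives were DESeq2 1.42.0 (size factors, Wald test), no filter, a mean of at least 50 counts, no mitochondrial transcripts, sums per gene symbol, only the treated libraries of a comparison with the controls, and leaving out each control. Fits were tested on simulated data. Intervals (95%) and the limit of 3 counts for a 0 cover counting error only. Sequences came from RefSeq and GENCODE tables. Python 3.11.15, pandas 2.3.3, numpy 2.4.6, scipy 1.17.1, biopython 1.88 and matplotlib 3.10.9 were used.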

Additional observations from a re-analysis of the deposited data

How the results depend on the processing

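All 120 log2 fold changes of IFITM1 and IFITM2 against the controls under the 10 alternatives were below 0. Each treatment had 1 library of at most 490235 counts, and the spread was taken from the 3 controls. No paired analysis was possible because each treated group has 1 library and the labels tie no treated library to a control. DESeq2's Wald test called 42 features for EA30 (107 in edgeR) and 114 for EA45 (240), and for the combinations 151 for EA35TMZ320 (271), 63 for EA20TMZ380 (153) and 55 for EA20TMZ580 (143). It called 26 for TMZ600 (61), 18 in EA45 against EA30 (60) and 11 in EA20TMZ580 against EA20TMZ380 (51). Without the filter, 93 were called in EA20TMZ580 and 16 in EA20TMZ580 against EA20TMZ380, and a filter at 50 counts left 13 in the latter. Leaving out each control in turn gave 60 to 103 calls in EA45 against EA30, with 103 without Control 1, and 33 to 76 in EA20TMZ580 against EA20TMZ380, with 33 without Control 2. In EA20TMZ580 against EA20TMZ380, 43.1% of calls were lower, 53.2% with DESeq2's size factors and 60% without mitochondrial transcripts. Leaving these out raised the log2 fold changes in EA20TMZ380 by a median of 0.12 per feature. The cause was not tested for any of these changes.

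The standard deviation of IFITM2 in the controls was 0.03 on the log2 scale, so small shifts exceeded it. The log2 fold change of IFITM2 in EA30 was -0.12 without the filter, -0.13 when the filter was set to 50 counts, -0.12 without mitochondrial transcripts and -0.11 with EA30 and the controls alone. In the same order it was -1.56, -1.65, -1.51 and -1.55 in EA45, and -2.47, -2.39, -2.32 and -2.31 in EA35TMZ320. In EA20TMZ380 it was -0.13 with DESeq2's size factors and with its Wald test, -0.27 with at least 50 counts, -0.076 without mitochondrial transcripts and -0.071 with the controls alone. In EA20TMZ580 it was -0.56 without the filter, -0.63 with at least 50 counts and -0.55 without mitochondrial transcripts, and in TMZ600 -0.51 and -0.59 with the first 2 of these. In EA45 against EA30 it was -1.44 without the filter and -1.52 with at least 50 counts. In EA20TMZ580 against EA20TMZ380 it was -0.44 with DESeq2's size factors and Wald test, -0.48 without mitochondrial transcripts and -0.55 with these libraries and the controls alone. IFITM1 was -2.53 in EA35TMZ320 without the filter, -0.76 in EA20TMZ380 without mitochondrial transcripts and with the controls alone, -1.23 in EA45 against EA30 with at least 50 counts and -0.73 in EA20TMZ580 against EA20TMZ380 with these libraries and the controls alone. IFITM2 levels without mitochondrial transcripts were 92.1% of the control mean in EA30, 35.2% in EA45 and 94.9% in EA20TMZ380, and 91.2% in EA20TMZ380 with DESeq2's size factors.

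Fold changes under alternatives were computed for the 8 tested genes of the lists outside the family. Among these 8, signs turned only in comparisons where the gene was not called. RPLP2 in EA30 was 0.014 without the filter, 0.013 without mitochondrial transcripts and 0.021 with the controls alone. POLR2L in EA20TMZ380 was 0.032 with DESeq2's size factors and Wald test, 0.089 without mitochondrial transcripts, 0.094 with the controls alone, and -0.068 to 0.0040 when each control was left out, the latter without Control 2. TICAM1 was -0.052 in EA20TMZ380 and -0.045 in EA20TMZ580 with at least 50 counts, -0.098 and -0.116 without Control 1, and -0.013 in EA20TMZ580 with the controls alone. Leaving out each control gave up to 0.121 in EA20TMZ380 and 0.0997 in EA20TMZ580. With each control left out, BST2 in TMZ600 ranged from -0.0040 (without Control 1) to 0.160, TALDO1 in TMZ600 from -0.065 (without Control 3) to 0.123, and RIGI in EA30 from -0.178 to 0.063 (without Control 3). Of the 480 values of these 8 genes under alternatives, 28 lost their call and 9 gained one.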
